A study of Mus musculus with 6 samples.

Results

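The transcripts described here encode the enzymes and proteins of cyclic AMP signalling: the adenylyl cyclases, the phosphodiesterases, the subunits, inhibitors and anchoring proteins of protein kinase A (PKA), and CREB with its coactivators. They were taken by gene symbol, as every probe set annotated with exactly 1 gene whose symbol begins with Pde or Adcy and a number or with Prkac, Prkar or Akap, and the probe sets of Creb1, Crem, Crtc1, Crtc2, Crtc3, Pkia and Pkig. The choice gave 169 probe sets of 64 genes, out of 45101 probe sets on the array and 18193 genes that a probe set names alone.

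Cyclic AMP is made from ATP by adenylyl cyclases, which receptors switch on through the G protein Gs and off through Gi, and it is removed by phosphodiesterases. It frees the catalytic subunits of PKA from the regulatory subunits, anchoring proteins hold the kinase near its substrates, and PKA phosphorylates the transcription factor CREB in the nucleus. In fat cells PKA starts lipolysis through the lipid droplet coat and hormone-sensitive lipase, and insulin opposes this by activating the phosphodiesterase PDE3B.

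RNA came from 3T3-L1 cells, mouse fibroblasts that hormones can make differentiate into adipocytes. There were 3 cultures treated with resveratrol, a polyphenol of plants, and 3 control cultures without treatment. Each culture was hybridised to 1 one-colour array, and the deposited intensities of all 6 arrays had been scaled to a trimmed mean of 150. No dose, length of treatment or state of differentiation is given, nor whether the cultures were independent. The p-values therefore cover only the spread among these cultures, which may be technical, and the number of arrays limits their precision. A difference below is the mean of log2(intensity + 16) in resveratrol cultures minus that in control cultures, given with its standard error (SE), and an adjusted p is limma's, adjusted by Benjamini-Hochberg over all 27022 tested probe sets, with a threshold of 0.05. The offset of 16 makes the differences of dim probe sets too small, and the level of one probe set cannot be set against that of another.

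The cultures of both groups carried fat cell transcripts. Of 6 listed adipocyte markers, 5 had a probe set, and all 5 were bright enough to be tested. Fabp4 read 8916.5 to 11741.3 in resveratrol cultures and 8760.4 to 14420.7 in control cultures. Cidec and Slc2a4 were lower with resveratrol, at -0.57 (adjusted p = 0.00784) and -1.38 (adjusted p = 1.6e-06), and Fabp4, Lpl and Adipoq did not pass, with -0.22, -0.19 and -0.31. Their summed intensity ranged from 24935 to 31866 in resveratrol cultures and from 25860 to 41158 in control cultures. Of 5 tested markers of preadipocytes or fibroblasts, Thy1 was higher, at 0.40 (adjusted p = 0.00807). Col1a1, Col3a1, Pdgfra and Dlk1 did not pass, with -0.32, -0.29, -0.07 and 0.08. The summed intensity of all 6 listed was 16109 to 19096 in resveratrol cultures and 18120 to 21370 in control cultures. Of 5 tested macrophage markers Cd14 was higher, at 0.47 (adjusted p = 0.0354). Lyz2, Cd68, Csf1r and Adgre1 did not pass, with 0.43, 0.21, 0.15 and -0.04, and Itgam and Ptprc were too dim to be tested. The sum of all 7 listed was 386 to 439 in resveratrol cultures and 281 to 358 in control cultures. The part of other cell types in the results below was not tested. The hybridisation spikes, added to every sample, were brighter on resveratrol replicate 1 and control replicates 1 and 2 (mean log2 signal of 10.741 to 11.029) than on resveratrol replicates 2 and 3 and control replicate 3 (10.008 to 10.289). Values on each side of this split are given beside the members with a call and, for genes of the lists, where a call was lost or a difference moved by over 1.5 times.

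Of the 169 cyclic AMP probe sets, 111 from 53 genes were bright enough to be tested, with a mean intensity of at least 21.0 over the 6 arrays. Of these 111, 7 from 6 genes passed the test, or 6.31%, against 8.22% of all probe sets tested. Adcy6, Prkar1a and Pkig had 1 probe set each that was higher with resveratrol (all tested probe sets: 3.99% higher), while Pde3b and Akap9 had 1 each and Creb1 had 2 that were lower (all tested probe sets: 4.23% lower). The other 104 did not pass. The share called was thus near that of the whole array, and the median difference of the 111 was -0.01, beside 0.01 for all. In 26 of the 111, or 23.4%, the arrays of the groups did not overlap, 11 of them higher and 15 lower, against 26.4% of all probe sets tested. Of the 7 calls, that of Pde3b alone held without resveratrol replicate 1, resveratrol replicate 2 or control replicate 2, and on either side of the spike split. Without resveratrol replicate 3 the calls of Pde3b and both Creb1 probe sets held, without control replicate 1 those of Pde3b, Pkig and Creb1 1452901_at, and without control replicate 3 those of Pde3b, Adcy6 and Akap9. The 11 genes with no tested probe set were Adcy4, Adcy8, Akap3, Akap14, Pde3a, Pde5a, Pde6a, Pde6b, Pde6c, Pde9a and Pde10a.

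**Figure D1:**
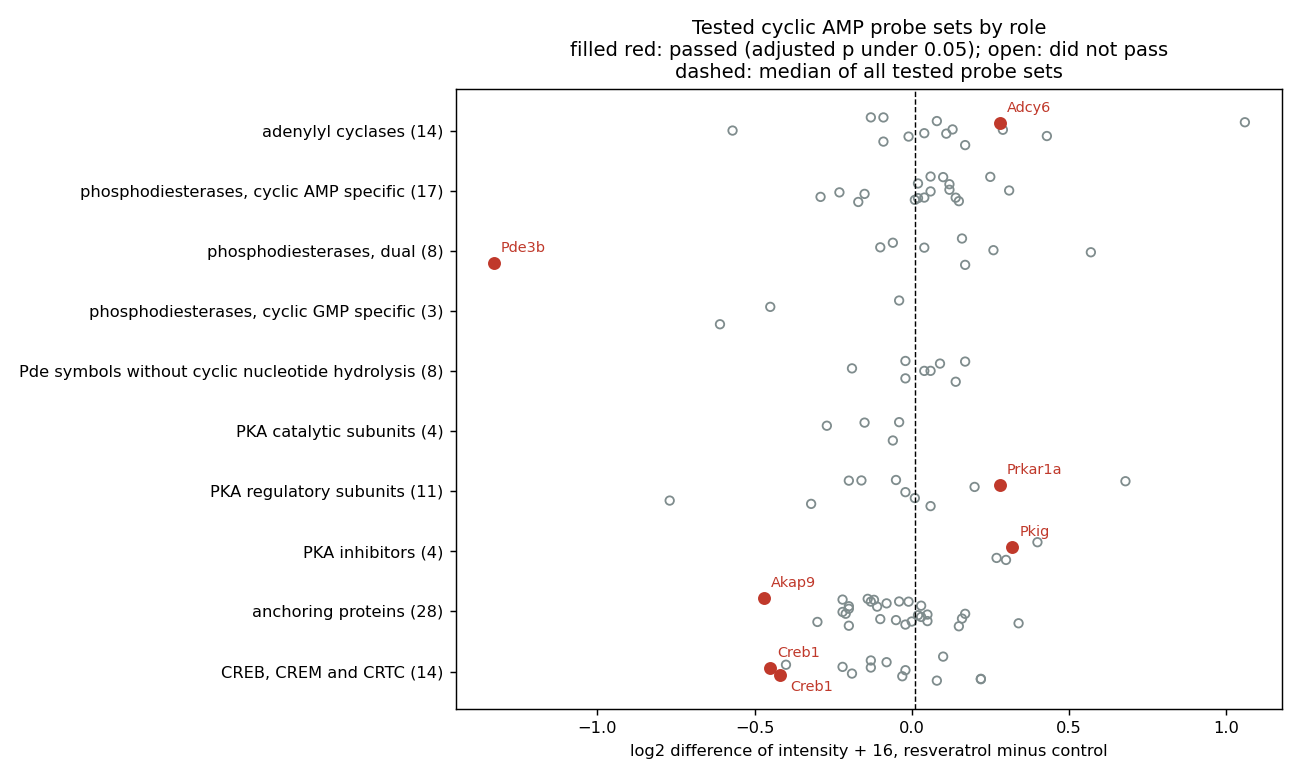
Each point is 1 of the 111 tested cyclic AMP probe sets, in rows by the role of its gene with the number tested in brackets, placed by its difference of log2(intensity + 16), resveratrol minus control. Filled points are the 7 that passed, and the dashed line is the median of all tested probe sets, 0.01. Pde3b lies at -1.33, apart from every other point, and the remaining passing probe sets lie between -0.47 and 0.32.

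Pde3b, the phosphodiesterase through which insulin lowers cyclic AMP in fat cells, fell to 39.3% of its control mean. Its only probe set, 1433694_at, read 672, 710.4 and 760.1 in resveratrol cultures, against 1737, 1885 and 1830.1 in control cultures. The highest resveratrol value lay below every control value by a wide margin, and within each group the 3 arrays were close, with means of 714 ± 43.9 in resveratrol cultures and 1817 ± 74.8 in control cultures (SD, n = 3 each). The difference was -1.33 ± 0.08 (SE), with limma's adjusted p = 4.26e-06. Of all 27022 probe sets tested, 0.189% fell further, and Pde3b had rank 52 by the depth of its fall and rank 12 by p.

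The fall of Pde3b passed in each of 18 alternative settings, with differences from -1.41 to -1.27 and adjusted p from 1.54e-06 to 0.00109. It was -1.41 (adjusted p = 5.24e-05) on the brighter-spike arrays alone and -1.30 (adjusted p = 5.6e-05) on the dimmer-spike arrays alone. Leaving out any 1 array gave -1.37 to -1.29. In a culture, fewer cells of a type and less RNA per cell cannot be told apart. The adipocyte markers Cidec and Slc2a4 were lower as well, while Fabp4, Lpl and Adipoq, at -0.22, -0.19 and -0.31, overlapped between the groups and did not pass. The part of fat cell content in the result was not tested.

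None of the other phosphodiesterases passed the test. Of the 25 tested probe sets of 13 genes whose products hydrolyse cyclic nucleotides, Pde3b included, 24 did not pass. Of their differences 18 were above 0 and 7 below (all tested probe sets: 14038 and 12984), and the median was 0.06. Those specific for cyclic AMP, the Pde4, Pde7 and Pde8 families, spanned -0.29 to 0.31 over 17 probe sets. Among them Pde4b came nearest to the threshold. Its probe set 1422474_at read 322, 354 and 329.9 in resveratrol cultures, against 278, 272 and 286 in control cultures. The groups did not overlap, and the difference was 0.25 ± 0.08 (SE, adjusted p = 0.0765). A second Pde4b probe set had 0.14 and the dimmer pair -0.17 and -0.15. Pde4d, which like Pde4b is a target of rolipram, had -0.29 (adjusted p = 0.227), and the brightest of 7 tested Pde7a probe sets had 0.12 (adjusted p = 0.521).

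Besides Pde3b, no enzyme that hydrolyses both cyclic AMP and cyclic GMP passed. Pde1a, a calmodulin-activated form, read 258, 281 and 276 in resveratrol cultures, against 281, 299.5 and 269 in control cultures, and the groups overlapped (-0.06 ± 0.08, adjusted p = 0.772). Pde2a, which cyclic GMP stimulates, had 0.17 (adjusted p = 0.48) on its brightest probe set and 0.57 and -0.10 on the others. Pde1b had 0.26 (adjusted p = 0.429). The cyclic GMP group was represented by Pde6g and Pde6h, inhibitory subunits of the photoreceptor enzyme, with differences of -0.04, -0.61 and -0.45, none of which passed. Pde6d, Pde12 and Pde4dip carry Pde symbols but are a prenyl-binding protein, a nuclease and a scaffold, and their 8 probe sets spanned -0.19 to 0.17, with 0.14, 0.17 and 0.09 on the brightest of each.

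Pde3a, the close relative of Pde3b, was too dim to be tested on any of its probe sets. On 1431914_at and 1450284_at the groups overlapped, and neither passed in a fit without the filter on dim probe sets. The remaining Pde3a probe set, 1431913_a_at, read 28.5, 28 and 24.1 in resveratrol cultures, against 7.62, 8.7 and 5.8 in control cultures. Its 2 groups did not overlap, and the fit without the filter gave 0.88 ± 0.16 (SE, adjusted p = 0.0234). The opposite pattern was seen in a dim probe set of the cyclase gene Adcy3, 1421959_s_at, with 6.7, 7.2 and 5.1 in resveratrol cultures, against 23.4, 26.4 and 33.1 in control cultures, and -0.96 ± 0.16 without the filter (adjusted p = 0.0189). These are the only 2 of the 58 untested probe sets that passed in that fit, where 0.355% of all 18015 probe sets too dim to be tested passed. In 11 of the 58 the groups did not overlap, beside 1848 of the 18015, or 10.3%. Every intensity of the Pde3a and Adcy3 probe sets 1431913_a_at and 1421959_s_at was at 33.1 or below.

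Among the adenylyl cyclases only Adcy6 passed. Adcy6 encodes a membrane cyclase that Gs stimulates and calcium inhibits. Its probe set 1418128_at read 964, 921 and 909 in resveratrol cultures, against 741, 770.3 and 774 in control cultures, and all resveratrol values lay above all control values. The means were 931 ± 28.8 in resveratrol cultures and 762 ± 17.8 in control cultures (SD, n = 3 each), and the difference was 0.28 ± 0.07 (SE, adjusted p = 0.029). It passed in 9 of 18 alternatives. Without resveratrol replicate 1, 2 or 3 or control replicate 1 or 2 the adjusted p was between 0.0593 and 0.119, and the difference was 0.34 (adjusted p = 0.197) on the brighter-spike arrays and 0.24 (adjusted p = 0.357) on the dimmer-spike arrays.

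The remaining 13 cyclase probe sets did not pass. Adcy3, the cyclase linked to body weight in mice and people, had -0.13, -0.09 and 0.29 on its tested probe sets (adjusted p of 0.59 or more), unlike the dim probe set above. The 4 probe sets of Adcy9, a forskolin-insensitive cyclase, lay between 0.04 and 0.17, and Adcy2 had -0.01. Adcy5 gave the largest difference among the cyclases, 1.06 ± 0.34 (SE, adjusted p = 0.0835), from uneven arrays: 1455296_at read 62.1, 26.2 and 51.9 in resveratrol cultures, against 6.88, 35.4 and 5 in control cultures. Resveratrol replicate 2 lay below control replicate 2, so the groups overlapped, and without control replicate 2 the difference was 1.47 (adjusted p = 0.016). The other tested Adcy5 probe set, 1443080_at, had 0.11 (adjusted p = 0.875), and its groups overlapped as well. Adcy7 had -0.57 (adjusted p = 0.0813), with 20.5, 36.1 and 26.3 in resveratrol cultures, against 48.3, 42.1 and 53.9 in control cultures, and did not overlap.

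**Figure D2:**
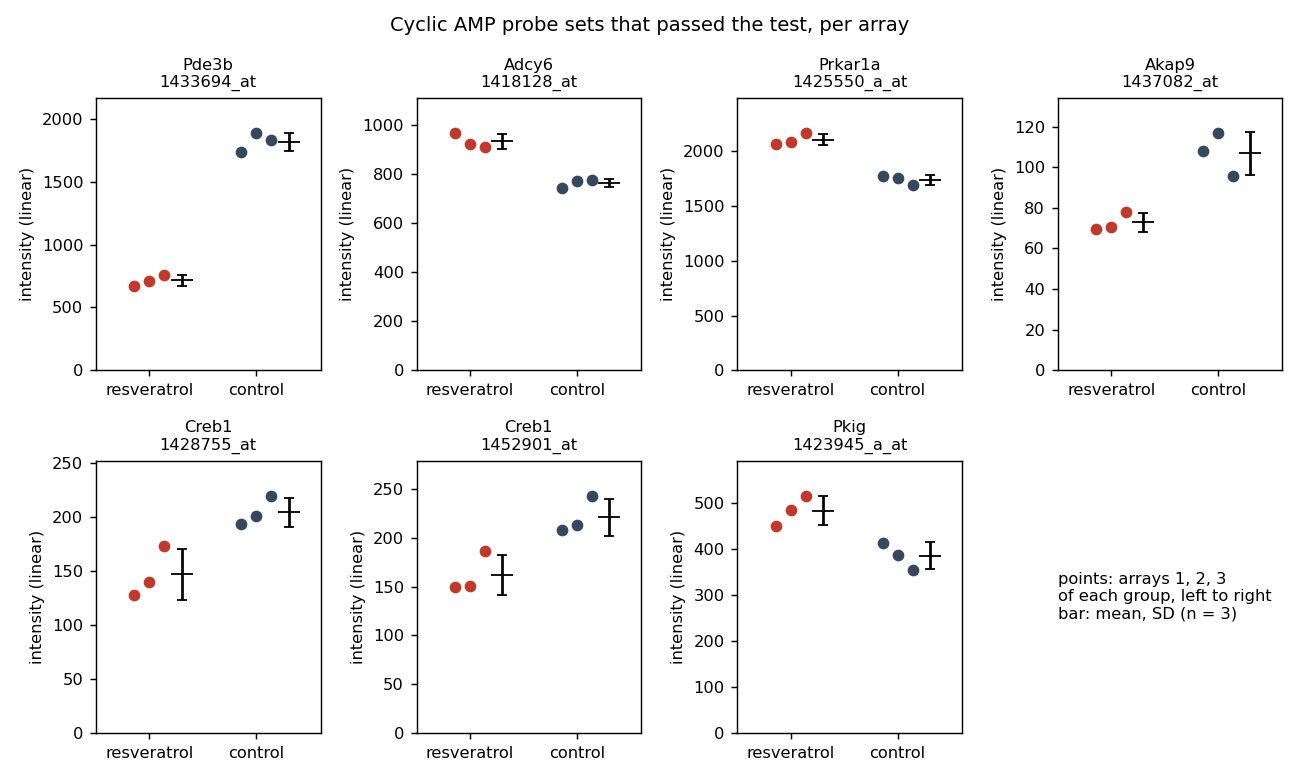
Points are the intensities, on a linear axis that starts at 0, of the 7 probe sets that passed, for arrays 1, 2 and 3 of the resveratrol group (left) and the control group (right) of each panel. Bars beside them give the mean and SD (n = 3). The groups do not overlap in any panel, and the gap is widest for Pde3b, with 672 to 760.1 in resveratrol cultures and 1737 to 1885 in control cultures.

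The catalytic subunits of PKA did not pass. For Prkaca, the main catalytic subunit in most tissues, the 2 probe sets differed: 1450519_a_at read 1543, 1403 and 1432 in resveratrol cultures, against 1879, 1746 and 1681 in control cultures, with a difference of -0.27 ± 0.08 (SE, adjusted p = 0.0528), while 1447720_x_at had -0.04 (adjusted p = 0.833). The first lay apart between the groups and passed in 5 of 18 alternatives. The second overlapped. Prkacb, the beta catalytic subunit, had -0.06 and -0.15.

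Of the regulatory subunits, 1 of 11 tested probe sets passed, or 9.09%, against 8.22% of all probe sets tested. Prkar1a, the type I subunit found in nearly all cells, was higher with resveratrol. Its probe set 1425550_a_at read 2069, 2089 and 2164 in resveratrol cultures, against 1771, 1754 and 1689 in control cultures, with no overlap. Means were 2107 ± 50 in resveratrol cultures and 1738 ± 43.2 in control cultures (SD, n = 3 each), and the difference was 0.28 ± 0.07 (SE, adjusted p = 0.0365). The other Prkar1a probe sets also lay apart in the same direction without passing, at 0.20 (1452032_at, adjusted p = 0.186) and, on the dim 1447635_at, 0.68 (adjusted p = 0.0941), which passed without control replicate 2 (adjusted p = 0.0204). The call of 1425550_a_at was met in 7 of 18 alternatives. It was lost whichever array was left out, with adjusted p from 0.0563 to 0.114, and the difference was 0.23 (adjusted p = 0.362) on the brighter-spike arrays and 0.33 (adjusted p = 0.0975) on the dimmer-spike arrays.

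Prkar2b, the type II subunit that predominates in fat cells, had differences below 0 on all 3 probe sets, and none passed. The brightest, 1456475_s_at, read 1799.9, 1669 and 1712 in resveratrol cultures, against 2046, 2493 and 1959 in control cultures. The groups lay apart, with control replicate 2 the highest, and the difference was -0.32 ± 0.10 (SE, adjusted p = 0.0694). It was -0.21 (adjusted p = 0.222) without control replicate 2, and passed in 4 of 17 alternatives. The other probe sets had -0.20 and -0.16. Prkar2a, the second type II subunit, was between -0.05 and 0.01 on 3 probe sets, with adjusted p of 0.893 or more. Prkar1b had 0.06 and -0.77 and did not pass.

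Both PKA inhibitor genes had differences above 0 on every probe set, with a median of 0.31 over 4. Pkig, the gamma form of the peptides that bind free catalytic subunits, read 450.5, 486 and 515 in resveratrol cultures, against 414, 388 and 355 in control cultures on 1423945_a_at. The lowest resveratrol value stood above the highest control value, the means were 484 ± 32.3 in resveratrol cultures and 386 ± 29.4 in control cultures (SD, n = 3 each), and the difference was 0.32 ± 0.09 (SE, adjusted p = 0.0452). The second Pkig probe set had 0.30 (adjusted p = 0.11). The call held in 6 of 18 alternatives. It was lost without resveratrol replicate 1, 2 or 3 or control replicate 2 or 3, with adjusted p from 0.067 to 0.135, and the difference was 0.16 (adjusted p = 0.683) on the brighter-spike arrays and 0.48 (adjusted p = 0.0929) on the dimmer-spike arrays. Pkia, the alpha form, was dim, with 0.40 (adjusted p = 0.232) on its brighter probe set.

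Of the 28 probe sets of 14 anchoring protein genes, 1 passed, or 3.57%, against 8.22% of all probe sets tested. Of their differences 19 were below 0 and 9 above (all tested probe sets: 12984 and 14038), and the median was -0.06. The one that passed belonged to Akap9, a large scaffold at the centrosome and Golgi apparatus. The probe set 1437082_at read 69.5, 70.7 and 78.1 in resveratrol cultures, against 108, 117 and 95.6 in control cultures. No array of one group reached the other, the means were 72.8 ± 4.66 in resveratrol cultures and 107 ± 10.6 in control cultures (SD, n = 3 each), and the difference was -0.47 ± 0.12 (SE, adjusted p = 0.0371). Of its other 3 probe sets, 1435769_at also lay lower, at -0.30 (adjusted p = 0.0968), 1455151_at had -0.13, and the dim 1446237_at lay in the opposite direction, at 0.34 (adjusted p = 0.244). Akap9 1437082_at passed in 7 of 18 alternatives. Without resveratrol replicate 1, 2 or 3 or control replicate 1 or 2 the adjusted p was between 0.0581 and 0.134, and the difference was -0.58 (adjusted p = 0.182) on the brighter-spike and -0.31 (adjusted p = 0.498) on the dimmer-spike arrays.

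Akap1, which tethers PKA to mitochondria, read 329, 325 and 309.6 in resveratrol cultures, against 352, 378 and 382 in control cultures on 1449019_at. The groups lay apart, but the difference of -0.20 ± 0.08 (SE) did not pass (adjusted p = 0.157), and its second probe set had -0.08. Akap12, a scaffold at the plasma membrane, read 735, 757 and 745 in resveratrol cultures, against 737, 747 and 754 in control cultures, and the groups overlapped (-0.00 ± 0.07, adjusted p = 0.996). Akap11 had -0.21 and the brightest of 6 tested Akap13 probe sets 0.03, neither past the threshold.

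Creb1, the transcription factor that PKA activates, was lower on 2 of 5 probe sets. On 1428755_at the intensities were 128, 139.5 and 173 in resveratrol cultures, against 194, 201 and 219.5 in control cultures, and on 1452901_at 149.9, 150.3 and 186 in resveratrol cultures, against 208, 213 and 243 in control cultures. In both, resveratrol replicate 3 was the highest of its group but stayed below all controls. The differences were -0.45 ± 0.11 (SE, adjusted p = 0.0375) and -0.42 ± 0.11 (adjusted p = 0.0389). The other Creb1 probe sets did not pass and did not share one sign, with 0.22 (1423402_at), -0.19 (1452529_a_at) and 0.22 (1421582_a_at), each with overlapping groups.

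The lower Creb1 calls were met in 9 and 10 of 18 alternatives. Without resveratrol replicate 1 or 2 or control replicate 2 or 3, both were lost, with adjusted p from 0.0903 to 0.14, and without control replicate 1 that of 1428755_at was 0.0511. On the brighter-spike arrays alone, 1428755_at had -0.57 (adjusted p = 0.115) and 1452901_at -0.45 (adjusted p = 0.219), and on the dimmer-spike arrays alone they had -0.46 (adjusted p = 0.21) and -0.50 (adjusted p = 0.163). The relative Crem, whose short form ICER represses cyclic AMP targets, had -0.13 and -0.03, and the CREB coactivators Crtc1 and Crtc3 had -0.08 and 0.10 on their brightest probe sets, all with adjusted p above 0.6. Crtc2 had 0.08 on its brightest probe set, whose groups overlapped (adjusted p = 0.794). On its dimmer probe set, whose groups lay apart, it had -0.40 (adjusted p = 0.179).

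**Figure D3:**
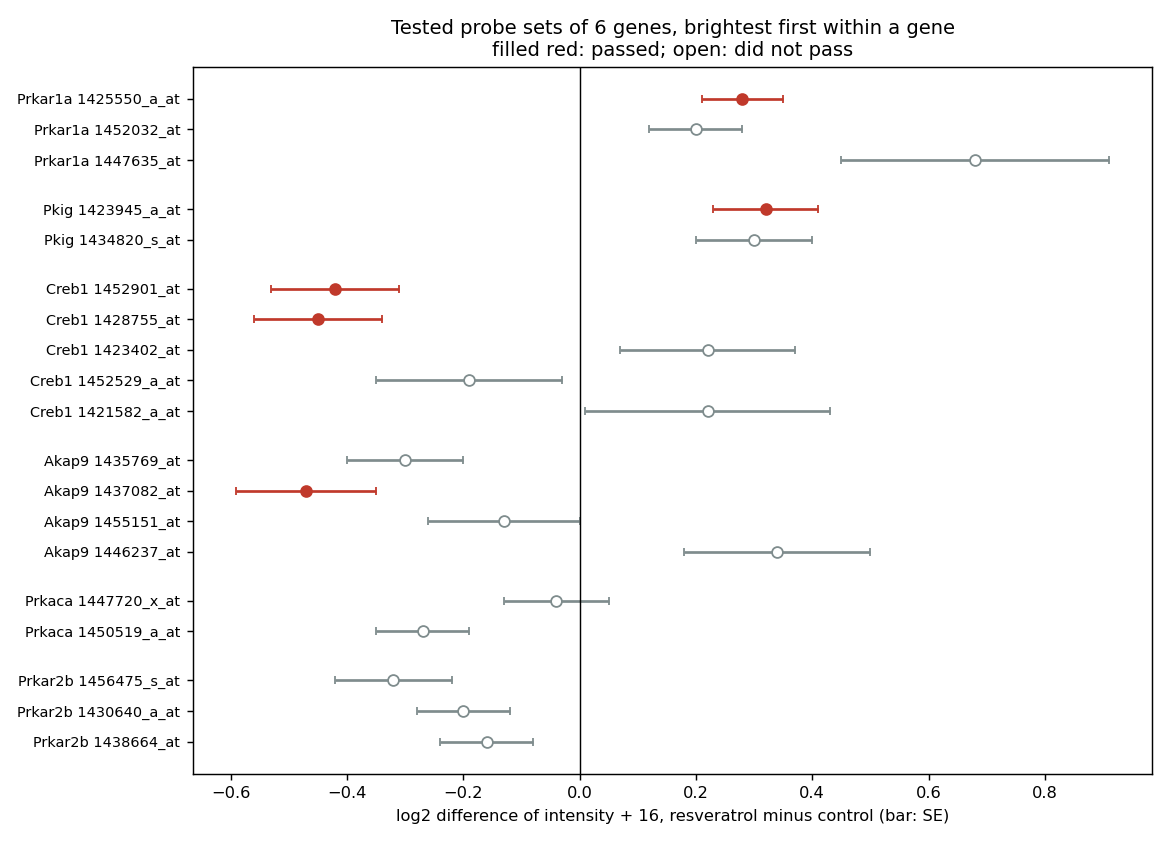
Each point is the difference of log2(intensity + 16), resveratrol minus control, of 1 tested probe set of Prkar1a, Pkig, Creb1, Akap9, Prkaca or Prkar2b, with bars for the SE and the brightest probe set of a gene at its top. Filled points passed. The 3 Prkar1a, 2 Pkig and 3 Prkar2b probe sets keep one sign within the gene, while those of Creb1 run from -0.45 to 0.22 and those of Akap9 from -0.47 to 0.34.

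Probe sets of a gene did not always share a sign. Of the 53 tested genes, 30 had several tested probe sets, and in 16 of these all differences had the same sign, while in 14 they were mixed. The same count over all genes of the array was not made, so these numbers have no background. Of the 6 genes with a call, Pde3b and Adcy6 rested on 1 tested probe set and the other 4 had several.

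The promoters of Prkar1a and Creb1 are shown because CREB binds the cyclic AMP response element, of which 1 of these genes with a call holds a full copy near its start and the other does not. Both windows run from 250 bases before to 50 after an annotated start in RefSeq's GRCm38.p6, on the plus strand, at chr11:109650612-109650911 for Prkar1a and chr1:64532554-64532853 for Creb1. Capitals mark TGACG or its reverse complement.
Prkar1a: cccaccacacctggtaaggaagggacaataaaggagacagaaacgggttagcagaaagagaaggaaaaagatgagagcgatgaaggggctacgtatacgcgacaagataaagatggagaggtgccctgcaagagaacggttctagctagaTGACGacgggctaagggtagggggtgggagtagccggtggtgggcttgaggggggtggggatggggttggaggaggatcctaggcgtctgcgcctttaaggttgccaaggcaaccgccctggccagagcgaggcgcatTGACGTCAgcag
Creb1: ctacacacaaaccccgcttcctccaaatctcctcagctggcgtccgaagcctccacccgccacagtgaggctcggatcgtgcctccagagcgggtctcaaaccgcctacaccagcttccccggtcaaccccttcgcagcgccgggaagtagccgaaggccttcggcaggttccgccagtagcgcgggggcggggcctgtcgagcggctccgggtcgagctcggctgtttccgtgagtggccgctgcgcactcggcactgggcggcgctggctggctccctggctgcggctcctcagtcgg
In the Prkar1a window the palindrome TGACGTCA lies at chr11:109650900-109650907, its first base 38 bases after the start, and a separate TGACG lies upstream of the start. Prkar1a has 6 annotated windows, of which 2 that overlap hold the palindrome. The Creb1 window holds no such letters. Over the 95 windows of 50 cyclic AMP genes with an entry, TGACGTCA was in 2.11%, against 1.79% of all 32851 windows of 300 bases, and TGACG on either strand, which counts the palindrome too, in 20%, against 20.8%. The hypoxia core ACGTG on either strand was in 20% against 19.6%, and the E-box CACGTG, which contains it, in 8.42% against 7.15%. A match is a description of the letters and not evidence of binding.

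**Figure D4:**
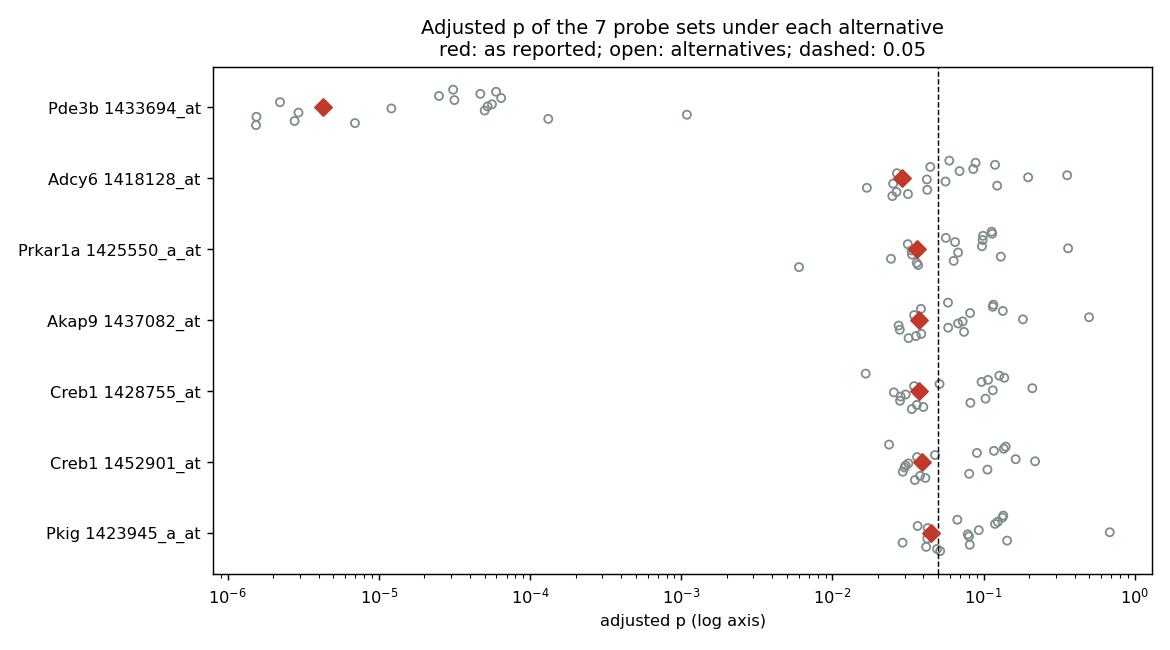
Adjusted p on a log axis of the 7 cyclic AMP probe sets that passed, as reported (filled diamonds) and under each of 18 alternatives (open circles), with the threshold of 0.05 dashed. Every circle of Pde3b lies at 0.00109 or below, whereas each of the other 6 has circles on both sides of the threshold.

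The rest of the pathway was followed in 5 gene lists, drawn up with earlier results of these data known, that leave out the 64 cyclic AMP genes, with each gene read from its brightest probe set. Of 84 genes tested, 4 were higher, 12 lower and 68 did not pass, a called share of 19.0%, where 10.6% of all 12650 genes were called (5.34% higher, 5.21% lower). The arrays of the groups did not overlap for 34 of the 84, or 40.5%, against 30.2% of all genes. The median difference was -0.08, beside 0.02 for all genes. The count of 16 was 10 without control replicate 2.

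Among 18 tested receptors and G protein subunits, 3 fell, or 16.7%, and none rose, where 5.21% of all genes were lower. All 3 that fell are receptors. Hcar2, a Gi-coupled receptor for nicotinic acid and beta-hydroxybutyrate that restrains lipolysis, read 6.3, 61 and 37.7 in resveratrol cultures, against 203, 182 and 188 in control cultures, with resveratrol replicate 1 the lowest and no overlap (-2.20 ± 0.34, adjusted p = 0.00288). Hcar1, the Gi-coupled lactate receptor, read 25.4, 33.9 and 36.1 in resveratrol cultures, against 99.3, 98.7 and 79 in control cultures, again with no overlap (-1.18 ± 0.15, adjusted p = 0.000939). Mc2r, the Gs-coupled receptor for ACTH, had -0.49 ± 0.10 (adjusted p = 0.0104). On the brighter-spike and dimmer-spike arrays Hcar2 had -3.22 and -1.67 and passed on both, Hcar1 had -1.47 and, on the dimmer, -0.90 without passing (adjusted p = 0.058), and Mc2r passed on neither (adjusted p = 0.238 and 0.102). The offset sets much of these sizes: with offsets of 1 and 64, Hcar2 had -2.89 and -1.40 and Hcar1 -1.52 and -0.71. The other 15, with Gnas, which encodes the Gs alpha subunit, at -0.13 (adjusted p = 0.584), lay between -0.20 and 0.21, and the list's median was -0.06.

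Of 19 other effectors and PKA partners, 1 passed, or 5.26%, against 10.6% of all genes. Ezr, the membrane linker ezrin that can anchor PKA, read 302, 321 and 307 in resveratrol cultures, against 214, 251 and 258 in control cultures, and rose by 0.35 (adjusted p = 0.0394). Its call was lost without resveratrol replicate 1, 2 or 3 or control replicate 1 or 2 (adjusted p from 0.0825 to 0.138), and on both the brighter-spike and the dimmer-spike arrays alone (0.335 and 0.428). None of 16 genes of the CREB family, its coactivators and the kinases that hold CRTC proteins in the cytoplasm passed by limma's adjusted p, and 2 had an unadjusted p under 0.05. The nearest was the CRTC kinase Sik2, at -0.22 (adjusted p = 0.084).

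The 22 tested genes known to be induced by cyclic AMP in some tissue did not share a direction: 3 rose, 4 fell and 15 did not pass. The share called was 31.8%, against 10.6% of all genes, and the median was 0.01. Cebpd, a C/EBP factor of early adipogenesis, read 515, 496 and 514 in resveratrol cultures, against 314, 266 and 235 in control cultures, and rose by 0.87 (adjusted p = 0.000426). Pfkfb3, which makes an activator of glycolysis, and the immediate early gene Ier2 rose by 0.47 and 0.29. Pck1, the phosphoenolpyruvate carboxykinase whose promoter is a standard CREB target, read 6.3, 8.8 and 12 in resveratrol cultures, against 81.1, 74.3 and 78.8 in control cultures, and fell by 1.92 (adjusted p = 6.34e-05). With every resveratrol value at 12 or below, its difference depends on the offset and was -3.02 with an offset of 1 and -0.96 with an offset of 64. Ppargc1a, the coactivator of mitochondrial biogenesis, Klf9 and Cebpb fell by 0.60, 0.30 and 0.29. The immediate responders Nr4a1, Fos and Per1 had 0.13, 0.39 and -0.09 and did not pass. Atf3, Egr1, Junb and Klf4, at 0.92, 0.28, 0.26 and 0.21, did not pass either, nor did Dusp1, Fosb and Nr4a2, at -0.14, -0.13 and -0.12. The nearest to the threshold without passing was Vegfa, at -0.39 (adjusted p = 0.0531), with groups that lay apart. The groups did not overlap for 12 of the 22, or 54.5%, against 30.2% of all genes, in a list drawn up with earlier results known. Of these 12, 7 were higher and 5 lower. The calls of Klf9, Cebpb and Ier2, with adjusted p of 0.03, 0.037 and 0.031, were each lost without resveratrol replicate 1 or control replicate 1 or 2, with adjusted p from 0.0626 to 0.135. Klf9 also lost its call without resveratrol replicate 2 (adjusted p = 0.132), Cebpb without resveratrol replicate 2 or 3 (0.143 and 0.0815), and Ier2 without resveratrol replicate 3 or control replicate 3 (0.0853 and 0.0578). Within each side of the spike split, Cebpd and Pck1 passed on both, Pfkfb3 was lost on the dimmer arrays (adjusted p = 0.124), and Ppargc1a (0.0608 on the brighter and 0.0519 on the dimmer arrays), Klf9, Cebpb and Ier2 (0.134 to 0.298) were lost on both.

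Lipolysis proteins were lower in part: 5 of 11 tested fell, or 45.5%, and none rose, where 5.21% of all genes were lower. The median was -0.33, beside 0.02 for all genes. This list, like the others, was drawn up with earlier results of these data known. G0s2, the inhibitor of the triglyceride lipase, read 1207, 1228 and 1115 in resveratrol cultures, against 3083, 2924 and 2449 in control cultures, far apart between the groups (-1.24 ± 0.09, adjusted p = 2.52e-05). Pnpla2, that lipase itself, and Mgll, which completes the breakdown, fell by 0.40 and 0.77 (adjusted p = 0.0254 and 0.00465), and the droplet proteins Cidec and Plin2 by 0.57 and 0.33. Lipe, the hormone-sensitive lipase that PKA phosphorylates, had -0.28 (adjusted p = 0.0758), with groups that lay apart. The list shares Cidec and Fabp4 with the adipocyte markers above, and the part of fat cell content in its falls was not tested. Without resveratrol replicate 2 or 3 or control replicate 1 or 2, the calls of Pnpla2 and Plin2 were lost, with adjusted p from 0.0583 to 0.145, and that of Plin2 also without resveratrol replicate 1 (adjusted p = 0.095). G0s2 and Cidec passed on both sides of the spike split, Mgll was lost on the brighter arrays (adjusted p = 0.0572), and Pnpla2 and Plin2 were lost on both (0.0542 to 0.266).

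**Figure D5:**
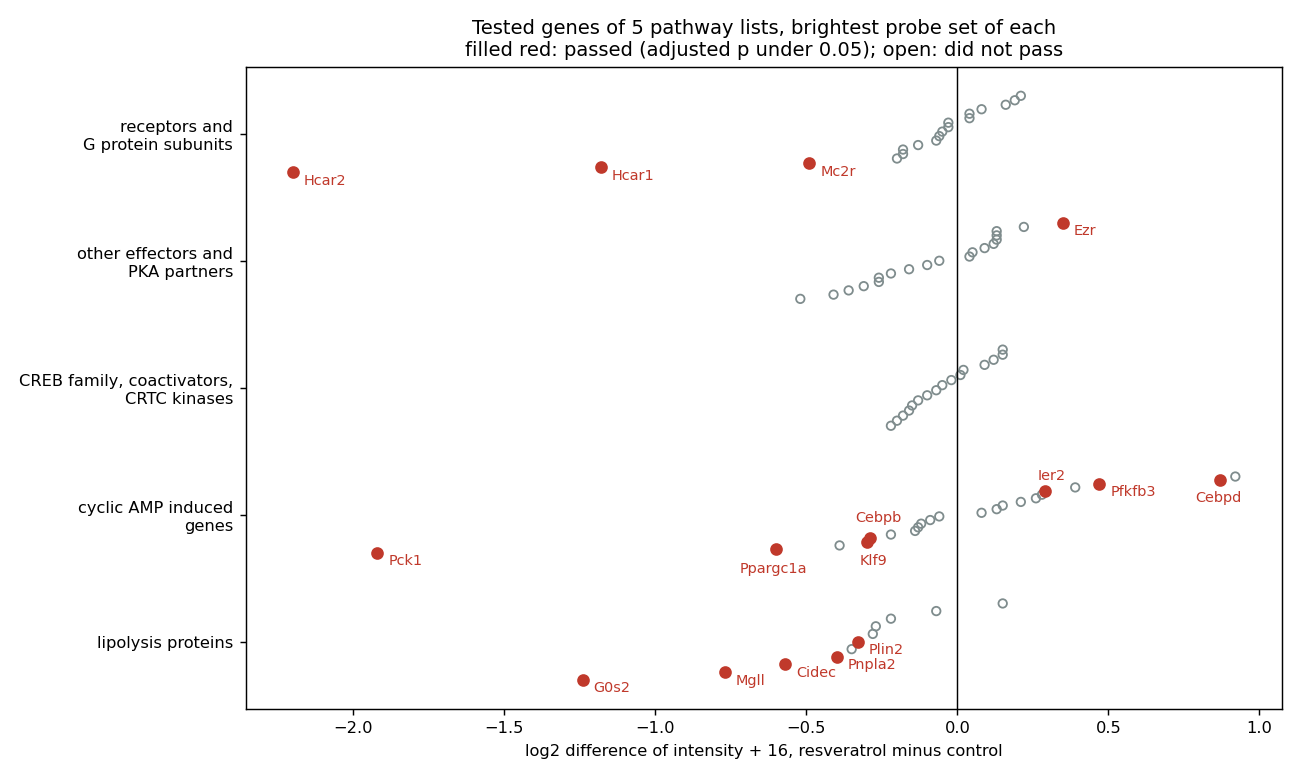
Each point is 1 of the tested genes of the 5 pathway lists, read from its brightest probe set and placed by its difference of log2(intensity + 16), resveratrol minus control. Filled points passed: 3 receptors and 5 lipolysis proteins lie below 0, ezrin above it, and the 7 cyclic AMP induced genes on both sides, from Pck1 at -1.92 to Cebpd at 0.87.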

How the data were processed

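Per the labels' protocols, RNA was isolated by Trizol and the target carried biotin, for one-colour arrays. The deposited values are linear intensities, 1 per probe set. The trimmed mean, without 2% at each end, is 150 in every column, so the authors applied 1 scaling factor per array, as read from the values, which leaves signal-dependent differences between arrays in place. Control replicate 1 was written out with more decimals. The summarising software and genome build are not given in the sources used here.

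Control probe sets (64) were left out. Probe sets naming several genes (932) or none (9160) were kept for the test but are not named. Member symbols matched RefSeq GRCm38.p6 for 167 of 169 probe sets. Of all probe sets other than controls, the brightest 60% by mean over 6 arrays were tested, 2-sided, on log2(intensity + 16). This was done by lmFit and an intensity-trended eBayes from limma 3.58.1 (R 4.3.3). The fit was tested on simulated arrays.

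The members, the gene lists and the tests were chosen with earlier results of these data known. Named are every member past the threshold, up to 3 of the brightest others per role, those of opposite sign in a gene with a call, genes with a special role in adipocytes, and list genes past the threshold. Others near the threshold, apart between the groups or known as responders were chosen after their values were seen. These were Adcy5, Adcy7, Crtc2, Pde3a, Gnas, Lipe, Sik2, Nr4a1, Fos, Per1, Atf3, Egr1, Junb, Klf4, Dusp1, Fosb, Nr4a2 and Vegfa. The fit was repeated with quantile normalization, an offset of 1 or of 64, no filter on dim probe sets, the brightest 40%, no intensity trend, array weights, the replicate number or the spike split as a block, each side of that split, no probe sets ending in _x_at or _s_at, each array left out and, for the lists, probe sets averaged per gene. Figures were drawn by matplotlib 3.10.9 under Python 3.11.15.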

Additional observations from a re-analysis of the deposited data

How the results depend on the processing

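Of the 169 members, 58 were too dim to be tested. The fall of Pde3b passed in all 18 alternatives, and no called member changed sign. The number of members called higher, 3 as reported, was 0 without an intensity trend, 0 within the brighter spike arrays, 1 within the dimmer (Prkar1b, none of the 3), and 0 to 2 with 1 array left out, where the 2, without control replicate 2, are Adcy5 and another Prkar1a probe set. The number called lower, 4 as reported, was 2 without the filter (Pde3b and the dim Adcy3 probe set), 1 without a trend, 2 within the brighter (Pde3b and Pde6g), 1 within the dimmer, and 1 to 4 with 1 array left out. The 4 without control replicate 3 hold Prkaca and Prkar2b in place of Creb1, and the 4 without resveratrol replicate 3 hold Prkar1b in place of Akap9. The number of list genes called, 16 as reported, was 10 without the filter, 9 without a trend, 8 within the brighter, 8 within the dimmer, and 10 to 17 with 1 array left out. The number of all probe sets called, 2220 as reported, was 1396, 848, 639 and 784 in the same order, and 1115 to 1949 with 1 array left out, with 1224, 1115 and 1178 without resveratrol replicate 1, resveratrol replicate 2 and control replicate 2. Fits within a side rest on 3 arrays, with the lone one assumed to vary like the others. The cause of the other shifts was not tested. With quantile normalization, the other scaling run, the median of all probe sets was 0.012, beside 0.01 as reported.

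With the replicate number as a block (replicate block), 1880 probe sets, 0 higher members, 3 lower members and 12 list genes were called. The numbers are not known to pair the cultures: deviations of same-numbered arrays correlated at -0.061, -0.014 and 0.094, and not every array correlated best with its own number.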
